A study of Rattus norvegicus with 6 samples.

Results

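The identity of excitatory hippocampal neurons was examined through 8 genes, chosen by symbol from the 17066 genes of the deposited expression table. They were the vesicular glutamate transporter genes Slc17a7 and Slc17a6 and the transcription factor genes Neurod1, Neurod2, Neurod6, Prox1, Bcl11b and Tbr1. All 8 symbols were listed, and all 8 passed the filter on low values. RNA-seq was performed on primary hippocampal neurons prepared from embryonic day 18 rats of the Sprague-Dawley strain. The cultures were infected at 5 to 6 days in vitro (DIV5-6) with lentivirus carrying EGFP alone (EGFP, the control), CCNY-WT-EGFP (CCNY-WT, overexpression of the cyclin gene Ccny) or CCNY-shRNA-EGFP (CCNY-shRNA, knockdown of Ccny). Lysates were harvested at DIV14, and each condition was sequenced as 2 libraries. All 3 conditions therefore shared lentiviral infection and EGFP, the virus was made from the FUGW vector, and the control carried no shRNA. The RNA came from the whole culture rather than from sorted cells, so fewer cells of a type and less RNA per cell cannot be told apart. Whether the 2 libraries of a condition came from separate cultures is not given in the sources used here, and the p-values measure only the spread between these libraries, which may be technical.

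Excitatory neurons of the hippocampus load glutamate into synaptic vesicles through vesicular glutamate transporters, of which VGLUT1 (Slc17a7) is the main form in mature pyramidal and granule neurons, whereas VGLUT2 (Slc17a6) is used more widely during development and in subcortical neurons. NeuroD proteins are basic helix-loop-helix (bHLH) transcription factors that dimerize with E proteins and bind E-box sequences to drive neuronal differentiation. Prox1 is a homeodomain factor that marks dentate granule neurons, Bcl11b (CTIP2) is a zinc-finger factor of CA1 pyramidal and granule neurons, and Tbr1 is a T-box factor of early postmitotic glutamatergic neurons.

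The labels were checked first against the targeted gene. The FPKM (fragments per kilobase of transcript, scaled to the mapped fragments of the library) of Ccny was 43.1 and 42.3 with EGFP alone, 108 and 109 with CCNY-WT, and 5.98 and 6.19 with CCNY-shRNA. The table holds no read counts. Weakly expressed genes (highest FPKM under 0.3) share a most frequent FPKM ratio between libraries, which gave depths of 0.818 to 1.33 times that of EGFP replicate 1, and the absolute depth is unknown. For Bc1, CCNY-WT replicate 1 held 97548 FPKM while all 5 others held 0. The culture was a mixture in which neurons could be recognized by 13 pan-neuronal markers, all of which were expressed, and Rbfox3 (NeuN) lay between 40.9 and 51.4. Genes of GABAergic neurons and astrocytes were also present, with Gad1 between 183 and 204 and Gfap between 98.3 and 130.06. Of 11 microglia markers, 10 stayed below an FPKM of 1 throughout, and Aif1 and Cx3cr1 were listed at 0 in all libraries. Pax6, a progenitor factor, reached at most 0.889.

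Slc17a7 was by far the most abundant of the 8 genes. FPKM is a value per transcript length, so levels of different genes can be set side by side. In EGFP, Slc17a7 had a mean FPKM of 915 ± 29.8 (SD, n = 2) and ranked 54 among the 17066 genes of the table. Neurod6 followed at 164 ± 9.47, a level 5.57 times lower, and was the most abundant of the transcription factor genes among the 8. Neurod1 had 36.8 ± 0.443, Neurod2 31.7 ± 3.22 and Slc17a6 27.9 ± 0.852. The 3 remaining transcription factors were the least abundant, at 8.45 ± 0.520 for Prox1, 7.98 ± 0.575 for Bcl11b and 6.04 ± 0.252 for Tbr1. The EGFP libraries of Prox1 and Bcl11b overlapped, so their order was not resolved, whereas every other pair of neighbours in this order was separated in EGFP. Over all 6 libraries, Slc17a7 and Neurod6 kept their places at the top, while Neurod1 exceeded Neurod2 in 4 of 6 libraries, Prox1 exceeded Bcl11b in 5 of 6, and Bcl11b exceeded Tbr1 in 5 of 6. VGLUT3 (Slc17a8), the third vesicular glutamate transporter, lay between 3.74 and 4.90.

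**Figure D1:**
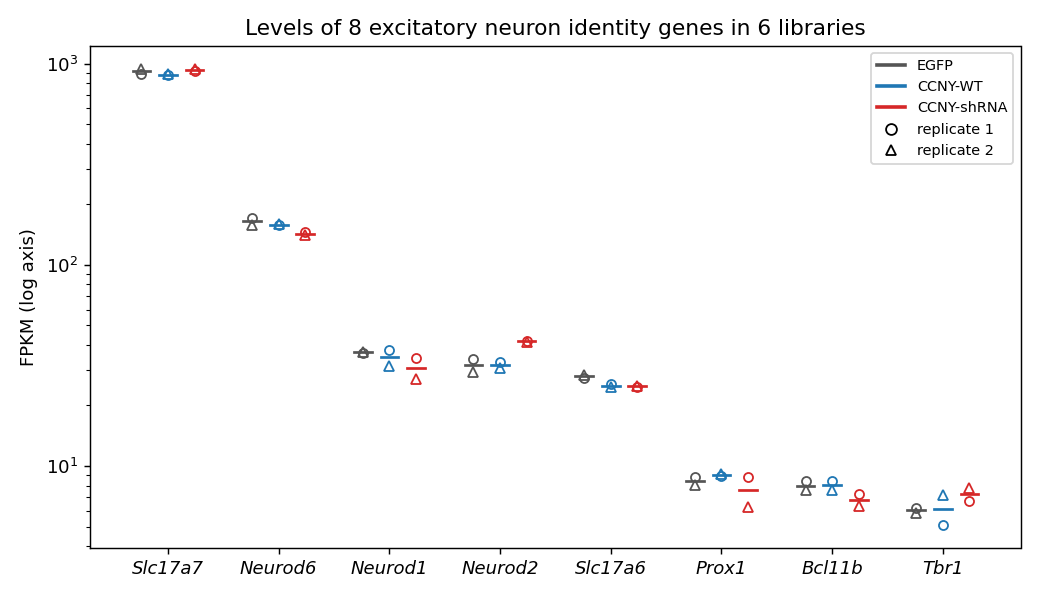
FPKM of the 8 genes (log axis) in each library, with genes ordered by their mean in EGFP. Circles are replicate 1, triangles are replicate 2 and bars are means of 2 libraries. Slc17a7 sits between 877 and 944 in all 6 libraries, and Neurod2 is the gene whose CCNY-shRNA libraries (41.7 and 41.6) both stand above its other 4.

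Because NeuroD factors bind E-boxes, the sequences upstream of the members were read for the letters CANNTG, which are the same on both strands. RefSeq promoter windows (build GRCr8) were found for 6 of the 8 genes, all but Prox1 and Bcl11b. The 250 bases before the annotated start of the 3 Neurod genes and the transporters are shown here, since these 5 genes carry the comparisons of levels that follow. They were taken from chr3:84770455-84770704 (- strand) for Neurod1, chr10:83824278-83824527 (- strand) for Neurod2, chr4:86180156-86180405 (- strand) for Neurod6, chr1:104785955-104786204 (+ strand) for Slc17a7 and chr1:110348197-110348446 (+ strand) for Slc17a6, each written 5′ to 3′ along the gene with E-box letters in capitals.
Neurod1: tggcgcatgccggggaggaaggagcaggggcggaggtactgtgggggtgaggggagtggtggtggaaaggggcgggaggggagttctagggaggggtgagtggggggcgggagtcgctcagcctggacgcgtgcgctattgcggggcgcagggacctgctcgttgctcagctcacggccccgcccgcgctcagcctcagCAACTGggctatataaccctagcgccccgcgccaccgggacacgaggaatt
Neurod2: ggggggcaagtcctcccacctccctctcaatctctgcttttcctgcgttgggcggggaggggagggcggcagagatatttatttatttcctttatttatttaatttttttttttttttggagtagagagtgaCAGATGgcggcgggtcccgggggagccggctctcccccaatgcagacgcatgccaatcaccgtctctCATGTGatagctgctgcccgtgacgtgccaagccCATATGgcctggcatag
Neurod6: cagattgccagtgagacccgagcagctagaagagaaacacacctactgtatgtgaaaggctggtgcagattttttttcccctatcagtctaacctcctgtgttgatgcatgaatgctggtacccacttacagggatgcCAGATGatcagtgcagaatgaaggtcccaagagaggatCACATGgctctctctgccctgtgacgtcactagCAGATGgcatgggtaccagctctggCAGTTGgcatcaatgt
Slc17a7: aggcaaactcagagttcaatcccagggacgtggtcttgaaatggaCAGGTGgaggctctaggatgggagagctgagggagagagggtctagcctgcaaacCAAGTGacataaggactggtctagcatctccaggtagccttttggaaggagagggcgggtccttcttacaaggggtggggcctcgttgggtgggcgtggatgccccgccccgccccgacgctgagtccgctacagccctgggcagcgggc
Slc17a6: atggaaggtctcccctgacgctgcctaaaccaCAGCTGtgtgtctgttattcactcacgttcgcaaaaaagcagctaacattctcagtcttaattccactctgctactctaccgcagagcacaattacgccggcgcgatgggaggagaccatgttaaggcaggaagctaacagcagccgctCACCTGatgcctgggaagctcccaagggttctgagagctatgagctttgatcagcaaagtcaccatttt
The letters CANNTG occurred 4 times upstream of Neurod6, 3 times upstream of Neurod2, 2 times upstream of each of Slc17a7 and Slc17a6, and 1 time upstream of each of Neurod1 and Tbr1. Of 33469 rat promoters of the same length, 65.5% held at least 1 such match. The form CAGATG, which reads on the other strand as CATCTG and is contained in CANNTG, occurred 2 times upstream of Neurod6 and 1 time upstream of Neurod2 and not in the other 4 windows, against 14% of all promoters with at least 1 match. The T-box letters GTGTGA, which read on the other strand as TCACAC, were in none of the 6 windows and in 11.6% of all promoters. These matches describe letters in a window and are not measured binding sites.

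The first question was whether the glutamatergic transmitter phenotype differed when Ccny was overexpressed or knocked down. Slc17a7 varied little, with its highest library at 1.08 times its lowest. The FPKM of Slc17a7 was 894 and 936 with EGFP alone, 877 and 889 with CCNY-WT, and 916 and 944 with CCNY-shRNA. Both CCNY-WT libraries lay below both EGFP libraries, and the CCNY-shRNA libraries overlapped those of EGFP. The log2 difference from EGFP was -0.05 in CCNY-WT (standard error, SE, 0.0637, adjusted p = 0.911 by limma) and 0.02 in CCNY-shRNA (SE 0.0637, adjusted p = 0.887 by limma). The 95% intervals ran from -0.20 to 0.10 and from -0.12 to 0.17, which correspond to folds of 0.871 to 1.07 and of 0.918 to 1.13. The sign in CCNY-shRNA was not stable, since it was -0.06 with quantile normalization.

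Slc17a6 was lower than EGFP in both conditions. Its FPKM was 27.3 and 28.5 with EGFP alone, 25.6 and 24.7 with CCNY-WT, and 24.8 and 25.1 with CCNY-shRNA. All 4 libraries of the perturbed conditions lay below both EGFP libraries, and they overlapped each other. The log2 change was -0.15 in CCNY-WT (SE 0.0716, adjusted p = 0.74996 by limma) and -0.16 in CCNY-shRNA (SE 0.0716, adjusted p = 0.277 by limma), and neither passed the threshold of 0.05. Both comparisons used the same EGFP libraries. The direct difference between CCNY-shRNA and CCNY-WT was -0.01 (95% interval -0.18 to 0.15, adjusted p = 0.968 by limma), with the sign turning to 0.0027 when libraries were scaled to 1 upper quartile.

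The 3 NeuroD genes did not share a direction in CCNY-shRNA. Neurod2, a bHLH factor of cortical and hippocampal excitatory neurons, had an FPKM of 34.0 and 29.5 with EGFP alone, 32.9 and 30.6 with CCNY-WT, and 41.7 and 41.6 with CCNY-shRNA. Both CCNY-shRNA libraries exceeded all other libraries, while CCNY-WT lay within the range of EGFP. The log2 change in CCNY-shRNA was 0.40 (SE 0.0847, 95% interval 0.20 to 0.59), which is 31.6% higher and a larger value than that of 96.5% of the genes tested. With limma its p was 0.00171 before and 0.0819 after adjustment over all 10188 genes tested, so it missed the threshold. The difference between CCNY-shRNA and CCNY-WT was 0.39 (SE 0.0847, adjusted p = 0.157 by limma), and the change in CCNY-WT was 0.0036 (95% interval -0.19 to 0.20). With 15 alternative settings the change in CCNY-shRNA relative to EGFP stayed between 0.29 and 0.50, and its adjusted p between 0.0589 and 0.374.

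Neurod6, a bHLH factor of pyramidal neurons, was lower in CCNY-shRNA. Its FPKM was 171 and 158 with EGFP alone, 157 and 160.0 with CCNY-WT, and 145 and 141 with CCNY-shRNA. Both CCNY-shRNA libraries lay below the other 4 libraries, and the CCNY-WT libraries overlapped those of EGFP. The log2 change was -0.20 in CCNY-shRNA (SE 0.0579, 95% interval -0.33 to -0.07), with a limma p of 0.00908 before and 0.137 after adjustment. In CCNY-WT it was -0.05 (SE 0.0579, adjusted p = 0.904 by limma), and it turned to 0.0100 without EGFP replicate 1. Neurod1, which acts in the differentiation and survival of granule neurons, had 36.5 and 37.1 with EGFP alone, 37.8 and 31.6 with CCNY-WT, and 34.6 and 27.0 with CCNY-shRNA. Both CCNY-shRNA libraries were below EGFP, and the gap between them was wider than the gap from EGFP to the nearer of them. The log2 change in CCNY-shRNA was -0.27 (SE 0.128, 95% interval -0.56 to 0.03, adjusted p = 0.311 by limma), and in CCNY-WT it was -0.09 (95% interval -0.39 to 0.21). Relative to CCNY-WT, the CCNY-shRNA values of Neurod6 and Neurod1 differed by -0.15 and -0.18 on the log2 scale (adjusted p = 0.368 and 0.643 by limma). In all 15 alternatives Neurod2 was higher and Neurod1 and Neurod6 lower in CCNY-shRNA than in EGFP. Neurod4, a related gene outside the list of 8, reached at most 0.539.

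Among the remaining transcription factors, the levels were low and the intervals wider, with SEs of 0.139 to 0.185. Prox1 had an FPKM of 8.82 and 8.08 with EGFP alone, 8.95 and 9.13 with CCNY-WT, and 8.86 and 6.29 with CCNY-shRNA. Both CCNY-WT libraries lay above both EGFP libraries. Its lower value in CCNY-shRNA rested on replicate 2, since replicate 1 lay above both EGFP libraries, and the log2 change of -0.18 (SE 0.173, adjusted p = 0.631 by limma) turned to 0.07 without replicate 2. Bcl11b had 8.38 and 7.57 with EGFP alone, 8.42 and 7.60 with CCNY-WT, and 7.25 and 6.35 with CCNY-shRNA. Its CCNY-WT libraries nearly matched those of EGFP, and both CCNY-shRNA libraries lay below all others. The log2 change in CCNY-shRNA was -0.23 (SE 0.139, 95% interval -0.55 to 0.09, adjusted p = 0.412 by limma). Tbr1 had 6.22 and 5.86 with EGFP alone, 5.10 and 7.15 with CCNY-WT, and 6.72 and 7.74 with CCNY-shRNA. The CCNY-WT libraries enclosed those of EGFP, whereas both CCNY-shRNA libraries lay above EGFP. The log2 change of Tbr1 in CCNY-shRNA was 0.26 (SE 0.185, 95% interval -0.17 to 0.68, adjusted p = 0.501 by limma). In CCNY-WT the changes of Prox1, Bcl11b and Tbr1 were 0.10, 0.0055 and 9.6e-05, with limma adjusted p-values of 0.937, 0.998 and 1.

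**Figure D2:**
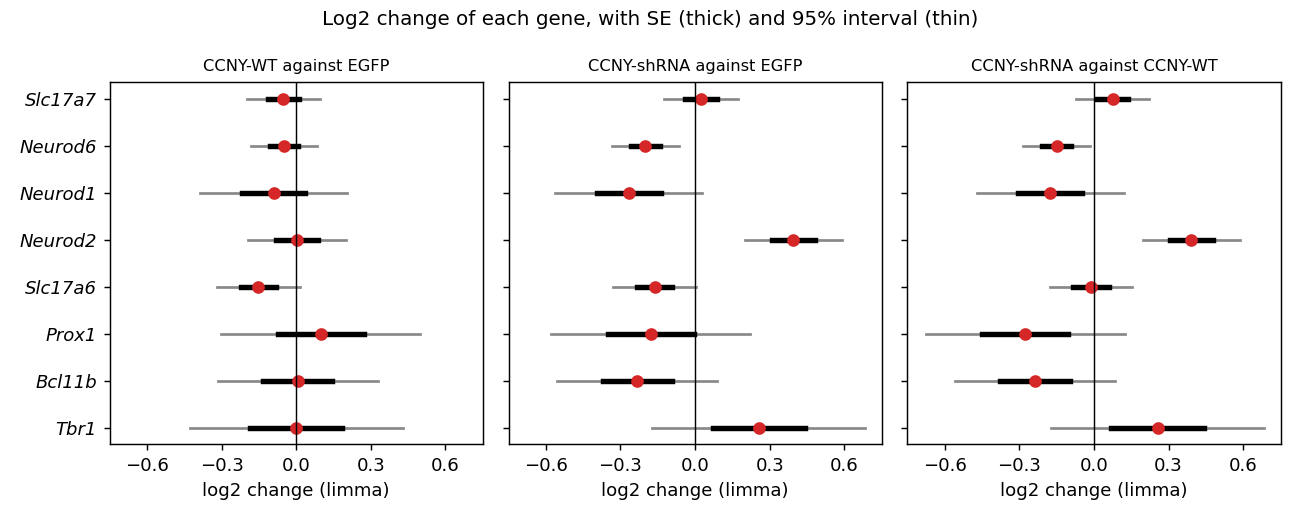
Log2 change of each gene in the 3 comparisons, as fitted by limma over 6 libraries. Points are estimates, thick bars are 1 standard error to each side and thin bars are 95% intervals. The intervals of Neurod2 (0.20 to 0.59) and Neurod6 (-0.33 to -0.07) for CCNY-shRNA against EGFP leave out 0, and no interval does for CCNY-WT against EGFP.

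By limma's test, 0 of the 8 genes passed an adjusted p of 0.05 in any of the 3 comparisons. Over all 10188 genes tested, the share past this threshold was 0.00982% in CCNY-WT against EGFP, 0.746% in CCNY-shRNA against EGFP and 0.216% in CCNY-shRNA against CCNY-WT. At an unadjusted p under 0.05 the counts were 0, 2 and 2 of 8, the latter being Neurod2 and Neurod6 in both cases, against 6.83%, 18.6% and 12.2% of all genes tested. The libraries did not overlap between CCNY-WT and EGFP for 3 of the 8 genes (background 39.5%), between CCNY-shRNA and EGFP for 6 (48.4%) and between CCNY-shRNA and CCNY-WT for 5 (42.2%). With 2 libraries in each group, an exact two-sided permutation test of 1 gene cannot go below p = 0.333. The study names the cuffdiff module for selecting genes beside its fold criteria. Here only the fold criteria were applied, to the difference in mean log2FPKM and without a test. In CCNY-WT, 0 of 8 reached 0.3 (5.11% of all genes in the table and 8.35% of those tested). In CCNY-shRNA, 1 of 8, Neurod2, reached 0.33 (7.92% and 13.1%). The latter count was 0 without EGFP replicate 2 and 4 without CCNY-shRNA replicate 1. The median log2 change of the 8 genes was -0.02 in CCNY-WT and -0.17 in CCNY-shRNA, beside medians of 0.0041 and 0 over all genes tested.

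Ratios within a library do not depend on a scale factor between libraries. That of Neurod2 to Neurod6 set CCNY-shRNA apart from the other 4 libraries. Those of Slc17a7 to Slc17a6 and of Slc17a7 to Gad1 did not overlap between any of the conditions. The FPKM ratio of Neurod2 to Neurod6 was 0.199 and 0.187 with EGFP alone, 0.209 and 0.191 with CCNY-WT, and 0.287 and 0.296 with CCNY-shRNA. The CCNY-shRNA libraries stood above the other 4, which overlapped. The ratio of Slc17a7 to Slc17a6 was 32.7 and 32.8 with EGFP alone, 34.3 and 36.0 with CCNY-WT, and 37.0 and 37.7 with CCNY-shRNA. Slc17a7 thus stood at least 32.7 times above Slc17a6 in FPKM in every library, with the lowest ratios in EGFP, the highest in CCNY-shRNA and no overlap between neighbouring conditions. The ratio of Slc17a7 to Gad1, the gene of a GABA-synthesizing enzyme, was 4.72 and 4.97 with EGFP alone, 4.31 and 4.50 with CCNY-WT, and 4.997 and 5.05 with CCNY-shRNA. It was lowest in CCNY-WT, and the CCNY-shRNA libraries lay just above EGFP. After these values were seen, the ratio of Neurod2 to Neurod1 was also computed, and it was 0.932 and 0.794 with EGFP alone, 0.869 and 0.970 with CCNY-WT, and 1.205 and 1.54 with CCNY-shRNA. Neurod1 was thus the more abundant of this pair in the 4 other libraries and Neurod2 in both CCNY-shRNA libraries. The ratio of Slc17a6 to Gad2, computed likewise, was 0.160 and 0.164 with EGFP alone, 0.146 and 0.136 with CCNY-WT, and 0.191 and 0.194 with CCNY-shRNA. It was highest in CCNY-shRNA, where both genes lay below EGFP. These ratios are descriptions of 6 libraries and carry no test. How often the ratios of other gene pairs fail to overlap was not computed. For single genes the share without overlap ran from 39.5% to 48.4% of those tested.

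**Figure D3:**
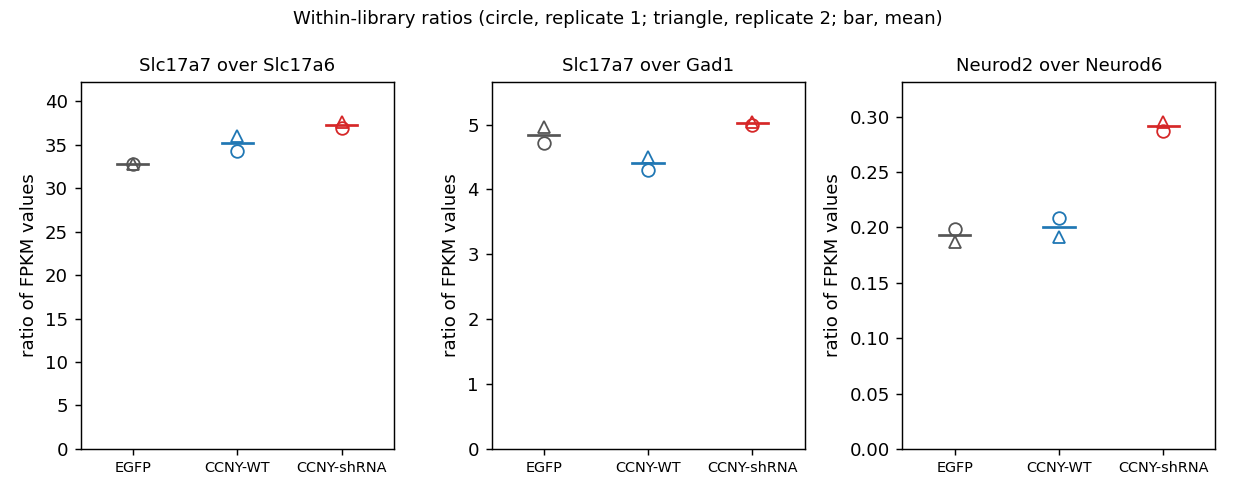
Ratios of FPKM values within each library (axes start at 0) for 3 gene pairs. Circles are replicate 1, triangles are replicate 2 and bars are means of 2 libraries. The ratio of Neurod2 to Neurod6 is 0.287 and 0.296 in CCNY-shRNA and at most 0.209 in the other 4 libraries.

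The members fell into different patterns over the 6 libraries, described here by Pearson's r of log2FPKM without a test, since the 6 points share 3 conditions and library-wide scaling. Bcl11b went with Neurod1 (r = 0.863), Neurod6 (r = 0.861) and Prox1 (r = 0.818). Neurod2 ran opposite to Neurod6 (r = -0.74), as did Tbr1 to Neurod1 (r = -0.89) and to Bcl11b (r = -0.80). Neurod2 and Tbr1 were the transcription factor genes whose CCNY-shRNA libraries both lay above EGFP, and Neurod1, Neurod6 and Bcl11b those whose CCNY-shRNA libraries both lay below. Slc17a7, the steadiest of the 8, had its most negative r with Bcl11b (-0.81). Neither transporter followed the other closely (r = 0.218). An SD from 2 libraries is imprecise, and its order among the members was not the same in each condition. The 2 CCNY-shRNA libraries of Neurod2 had an SD of 0.0610 around a mean of 41.6. Those of Neurod1 had an SD of 5.33 around 30.8 and those of Prox1 an SD of 1.82 around 7.57. In EGFP, Neurod2 had the largest SD of these genes, at 3.22 around 31.7, beside 0.443 around 36.8 for Neurod1 and 0.520 around 8.45 for Prox1. Whether the genes differ in spread was not tested. Over 6 libraries the highest value was 1.52 times the lowest for Tbr1, 1.45 times for Prox1, 1.41 times for Neurod2, 1.40 times for Neurod1, 1.33 times for Bcl11b, 1.22 times for Neurod6 and 1.16 times for Slc17a6.

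Other genes of the glutamatergic phenotype were taken from lists written from general knowledge. At an unadjusted limma p under 0.05, the shares of all genes tested were 6.83% in CCNY-WT against EGFP, 18.6% in CCNY-shRNA against EGFP and 12.2% in CCNY-shRNA against CCNY-WT. Of 10 tested genes of glutamate supply and transport, 0 passed limma's adjusted threshold in any comparison. In CCNY-shRNA against EGFP, 4 had an unadjusted p under 0.05, all lower, and the median log2 change was -0.15. The aminotransferase genes Got2 and Got1 were the most abundant of this list, with mean FPKM values of 241 and 202 in EGFP and log2 changes in CCNY-shRNA of 0.11 and 0.01. Of 10 tested bHLH partners and inhibitors, 0 passed in any comparison, with none at an unadjusted p under 0.05 against EGFP and 1 in CCNY-shRNA against CCNY-WT. Hes6, Tcf4 (an E protein that pairs with NeuroD factors) and Id2 were the most abundant of this list, with EGFP means of 118, 78.5 and 41.1 and log2 changes in CCNY-shRNA of -0.0078, -0.04 and -0.03.

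Among 24 tested genes of other pallial transcription factors, 0 passed limma's adjusted threshold in any comparison. At an unadjusted limma p under 0.05 the counts were 2, 2 and 3, beside 6.83%, 18.6% and 12.2% of all genes tested. The median log2 change in CCNY-shRNA against EGFP was -0.06. The repressor gene Zbtb18 (listed as Zfp238), Nfix and Bhlhe22 were the most abundant in EGFP, at means of 179, 147 and 137, close to the level of Neurod6. Their log2 changes in CCNY-shRNA were -0.12, 0.02 and 0.11. Of 13 tested markers of hippocampal subfields, 1 passed in CCNY-shRNA against EGFP, and the median log2 change was -0.12. There 4 were lower at an unadjusted limma p under 0.05, which 18.6% of all genes tested reached in either direction. Fibcd1, which marks CA1 pyramidal neurons, was the gene that fell by limma's adjusted threshold. Its FPKM was 11.4 and 12.5 with EGFP alone, 11.2 and 10.4 with CCNY-WT, and 7.20 and 6.95 with CCNY-shRNA. The log2 change was -0.75 (SE 0.117, adjusted p = 0.0439 by limma), and the adjusted p ranged from 0.0270 to 0.337 over the 15 alternatives, of which 10 lost the call. Leaving out any 1 of the 6 libraries lost it, with adjusted p-values of 0.0955 to 0.337 by limma. In the same list, Wfs1 and Mpped1 had log2 changes in CCNY-shRNA of -0.30 and 0.04 (adjusted p = 0.0902 and 0.896 by limma). A change of CA1 neurons cannot be read from Fibcd1 alone. The most abundant subfield markers were Pcp4, Calb1 and Nectin3 (listed as Pvrl3), with means of 851, 132 and 64.7 in EGFP. Their log2 changes in CCNY-shRNA were 0.09, -0.08 and -0.33, none past the threshold.

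Markers of other cells were set beside these values. Over 13 pan-neuronal markers, led by Gap43, Stmn2 and Nefl with EGFP means of 982, 959 and 746, 0 passed the threshold in any comparison. At an unadjusted limma p under 0.05 the counts were 0, 3 and 1, beside 6.83%, 18.6% and 12.2% of all genes tested. Of the 3 in CCNY-shRNA against EGFP, 2 were higher and 1 lower, and the 1 against CCNY-WT was higher. The median log2 change in CCNY-shRNA against EGFP was -0.04. Of 15 tested interneuron markers, 2 passed in CCNY-shRNA against EGFP and both were lower, with a median log2 change of -0.14. There 5 were lower at an unadjusted limma p under 0.05, which 18.6% of all genes tested reached in either direction. Gad2, which makes GABA, had 170 and 173 with EGFP alone, 176 and 181 with CCNY-WT, and 129.5 and 129.0 with CCNY-shRNA (log2 change -0.41, SE 0.0494, adjusted p = 0.0226 by limma). Gad2 was also lower than in CCNY-WT, with a log2 difference of -0.46 (adjusted p = 0.0165 by limma). In each of these comparisons 9 of 15 alternatives lost the call of Gad2. Leaving out any 1 of the 6 libraries lost it in both, with adjusted p-values by limma of 0.0767 to 0.316 against EGFP and of 0.0799 to 0.377 against CCNY-WT. For Gad1 and the vesicular GABA transporter gene Slc32a1 the log2 values were -0.03 and -0.13, with limma adjusted p-values of 0.813 and 0.332. The summed FPKM of the 16 interneuron markers in the table, led by Sst and Npy, was 2486 and 2609 with EGFP alone, 2527 and 2538 with CCNY-WT, and 2145 and 2306 with CCNY-shRNA. That of 8 astrocyte markers was 457 and 497 with EGFP alone, 487 and 489 with CCNY-WT, and 407 and 476 with CCNY-shRNA, led by Aldoc, Gfap and Slc1a3. None of these markers was listed at 0 in all libraries, and the part of such cells in the values of the 8 genes was not tested.

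Of the markers of other cells, 0 of 8 astrocyte, 6 progenitor and mitotic, 6 oligodendrocyte lineage, 1 microglia and 2 vascular and meningeal genes tested passed limma's adjusted threshold in any comparison. Before adjustment, the counts under 0.05 in CCNY-shRNA against EGFP were 2, 1, 1, 0 and 0, beside 18.6% of all genes tested. The median log2 changes there were -0.16, -0.02, -0.16, 0.01 and 0.04. The highest EGFP means in these lists were those of Dcx, Sox2 and Nes (52.6, 9.97 and 9.89), of Olig1, Mbp and Cnp (12.9, 12.3 and 11.1) and of Lum, Dcn and Col3a1 (53.1, 14.1 and 0.466). Sox10 and the endothelial gene Cldn5 were listed at 0 in every library.

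**Figure D4:**
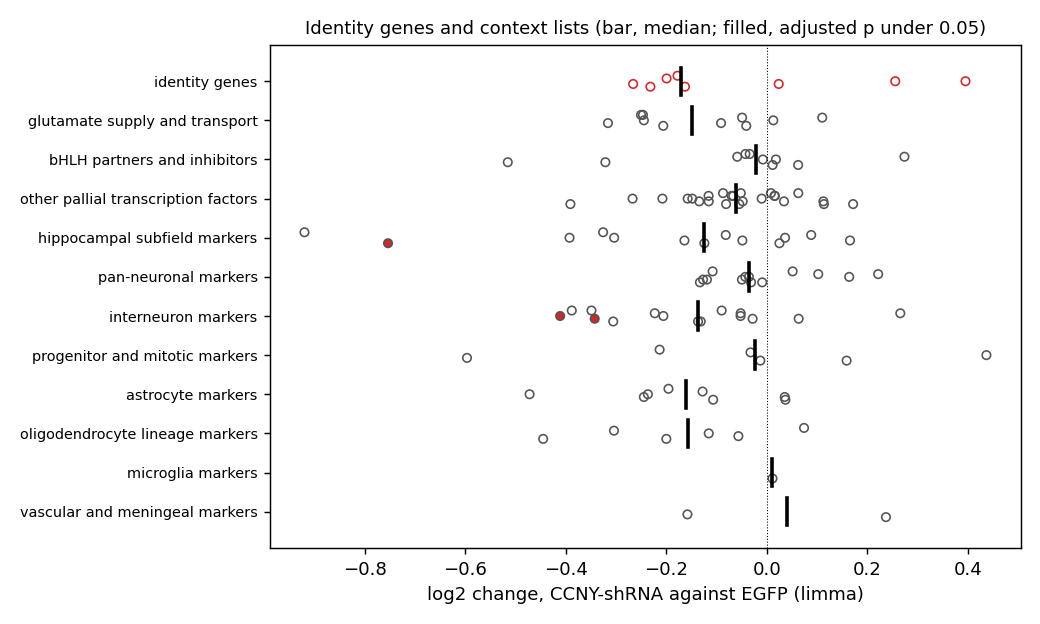
Log2 change in CCNY-shRNA against EGFP for the 8 identity genes (red outlines) and the tested genes of 11 context lists, with 1 point per gene and a bar at each list's median. Filled points mark limma adjusted p under 0.05, which Fibcd1 reaches among the subfield markers and Gad2 among the interneuron markers, with no filled point among the 8 identity genes.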

How the data were processed

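The authors used TopHat 2 to map reads against rn4, a rat genome build, and Cufflinks to estimate FPKM. These deposited FPKM values cover 17066 genes in each of 6 libraries. The submitters' processing notes name TopHat2 2.0, Bowtie2 2.1.0, SAMtools 0.1.19, Cufflinks 2.2.1 and R 3.1.0, while the gene annotation, or a scaling of libraries to each other, is not given in the sources used here. Samples were grouped by their titles.

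Values below 1 were set to 1 before taking log2, which compresses changes of genes near an FPKM of 1. The tests came from limma 3.58.1 (R 4.3.3), with a trended eBayes fitted to the 6 libraries together. The 10188 genes that reached an FPKM of 1 in 2 or more libraries entered it, with Benjamini-Hochberg adjustment over these genes and a threshold of 0.05. Simulated data with known changes were used to test the script. Plots were drawn with matplotlib 3.10.9 in Python 3.11.15. The 8 genes and the 11 context lists (glutamate supply and transport, bHLH partners and inhibitors, other pallial transcription factors, and markers of hippocampal subfields, neurons, interneurons, progenitors, astrocytes, oligodendrocytes, microglia and vascular or meningeal cells) were chosen with earlier results of these data known. Named from the lists were genes past the threshold, the 3 most abundant in EGFP and preset genes such as Gad1, Pax6 and Slc17a8. Rbfox3, Aif1, Cx3cr1, Neurod4, Sox10, Cldn5, Wfs1, Mpped1 and Bc1 were named after their values were seen. Fold criteria of the study were 0.3 and 0.33. The cuffdiff module that the study also names was not run here, so the fold counts need not match its gene lists. Of the 156 list entries, 14 were not matched in the table and were not analysed here. Some genes of the lists are not reported here. Alternatives covered the log offset, the filter, the scaling, the estimate of the spread, the libraries in the fit, a replicate block and leaving out each library.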

Additional observations from a re-analysis of the deposited data

How the results depend on the processing

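No member passed limma's adjusted threshold in any comparison under any of the 15 alternatives. The count of all genes past it depended on the setting. In CCNY-WT against EGFP it was 1, and 3 with log2(FPKM + 1) or with a mean FPKM of at least 5. In CCNY-shRNA against EGFP it was 76, but 2 with no filter, 144 with a mean FPKM of at least 5, 1 with eBayes without trend, 39 with the replicate block and 1 with only the libraries of the compared groups. In CCNY-shRNA against CCNY-WT it was 22, but 2, 37, 1 and 1 with the same settings other than the block. Leaving out 1 library at a time, these counts ran from 0 to 1, from 1 to 7 and from 1 to 8, and the lone library of a group was assumed to vary like the others. Replicate numbers were shared across conditions, and the deviations of same-numbered libraries correlated at 0.0377 to 0.0538 over 10188 genes. Such values cannot show whether same-numbered libraries shared a culture or a preparation, and the main fit left them unpaired. The count of members past the fold criterion in CCNY-shRNA ran from 0 to 4 with a library left out, against 1.

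Of 360 values of log2 changes of the 8 genes under alternatives, 17 had the opposite sign to the reported value. None of the reported changes of the 8 genes had passed the threshold. In CCNY-WT against EGFP, the values with 1 library left out ran from -0.22 to 0.040 for Neurod1, from -0.10 to 0.11 for Neurod2 (-0.05 without CCNY-WT replicate 1), from -0.11 to 0.0100 for Neurod6, from -0.069 to 0.080 for Bcl11b and from -0.24 to 0.24 for Tbr1 (-0.04 without EGFP replicate 2). Quantile normalization moved Bcl11b to -0.0087 and Tbr1 to -0.023 there, and Slc17a7 to -0.062 in CCNY-shRNA against EGFP and -0.011 in CCNY-shRNA against CCNY-WT. In CCNY-shRNA against EGFP, the values with 1 library left out ran from -0.0096 to 0.057 for Slc17a7 and from -0.42 to 0.069 for Prox1. In CCNY-shRNA against CCNY-WT they ran from -0.038 to 0.015 for Slc17a6, which was 0.0027 after scaling to 1 upper quartile, and from -0.35 to 0.0016 for Neurod1. The calls of Fibcd1 and Gad2 were recomputed as alternatives chosen after seeing the data. Absolute depth is unknown, so no counting interval could be given.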

Other observations

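The genes whose profile over the 6 libraries was most like that of each of the 8 genes were listed by Pearson's r of log2FPKM among 8054 genes with a mean FPKM of at least 5. For Neurod2 these were Polr3e (r = 0.994) and Abhd13 (r = 0.993), both highest in the CCNY-shRNA libraries, where Polr3e had 15.3 and 15.1 against 12.8 and 11.7 in EGFP. For Neurod6 they were Gpr22 (r = 0.990), an orphan receptor gene with 51.9 and 48.2 with EGFP alone against 43.3 and 41.5 with CCNY-shRNA, and Ppp1r15b (r = 0.990). For Slc17a6 they were Panx1 (r = 0.994), a pannexin channel gene, and Tmem184c (r = 0.993). For Neurod1 they were Thy1 (r = 0.992) and Akap9 (r = 0.991), for Prox1 Nbr1 (r = 0.994) and Pde10a (r = 0.991), and for Bcl11b Ppp2r2d (r = 0.997) and Trib1 (r = 0.993). For Tbr1 they were RGD1308106 (r = 0.990) and Serpinb6 (r = 0.987), and for Slc17a7 Tsen15 (r = 0.978) and Wdr75 (r = 0.973). Between 8 and 46 genes per member had an r above 0.95. The 6 points share 3 conditions and their library-wide scaling, and these values are a description without a test.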
